A study of Mus musculus with 212 samples.

Results

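Vim and Fn1 are 2 of the 33 genes, and 2 of the 42 TaqMan assays, that were measured in single mouse cells of the cardiovascular lineages. They were chosen by name as the mesenchymal pair on the panel, and their values were read in every named set of cells of all 7 tables. Vim encodes vimentin, the intermediate filament protein of mesenchymal, endothelial and many undifferentiated cells. Fn1 encodes fibronectin, a secreted glycoprotein that assembles into the extracellular matrix and is bound by integrins. In the heart both are known as products of fibroblasts and other non-myocytes, both are expressed in early mesoderm, and differentiated cardiomyocytes hold desmin rather than vimentin as their main intermediate filament.

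The study measured transcripts by microfluidic quantitative PCR after pre-amplification. Its deposited values are quantification cycles (Ct), with 25 for an assay that gave no signal. Levels are given here as 25 minus Ct in cycles. A step of 1 cycle is 1 log2 unit if amplification was fully efficient, and 0 means not detected. Each assay has its own efficiency, so a level of Vim is never set against a level of Fn1 as an amount.

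The groups were as follows. Cells of days D5, D6, D7 and D8 (6 per day) and of D23 and D29 (10 per day) carry day names, cells of E7.5, E8.5, E9.5 and E10.5 (6 per stage, plus a table of 72 E10.5 cells) carry embryonic stage names, and 10 adult and 5 neonatal cells came from each of the atrial and ventricular chambers. The 30 reference cells were 5 each of CPC, CM, SMC, EDC, ES and FB. The labels expand none of these names, and they give no strain, genotype or treatment. Names of the cells inside the tables are used throughout, because sample titles go against them for 3 sets: titles call the D5-D8 set embryonic, the D23-D29 set ES-derived of early stages, and the embryonic stage set ES-derived of late stages.

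Of 200 cells, 8 repeat a cell of another table in all assays, namely the 6 E10.5 cells of the stage table and the CM cells 1 and 2, which are also D29 cells. This leaves 192 distinct cells, 66 of them in the large E10.5 table. Negative controls gave 0 on both assays. The positive control of the atrial and the ventricular table stood 1 row lower than elsewhere on 40 of 42 assays, while pairs of assays for 1 gene differed by 1.13 and 1.40 cycles in the cells of these tables with the row names as given, and by 9.49 and 7.25 with names moved by 1 row, so the names were kept. Single cells detected 7 to 34 of the 42 assays. No label names an animal or culture. Each set is therefore 1 sample, the SD is the spread between its cells, no difference could be tested, and a difference is described as called where the means lie at least 1 cycle apart. Detection shares have exact (Clopper-Pearson) 95% intervals, which cover counting error only.

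Across the 21 sets the mean Vim level ran from 11.99 ± 0.56 cycles in SMC cells (SD, n = 5) and 11.47 ± 0.95 in D5 cells (SD, n = 6) down to 1.32 ± 2.14 in adult ventricular cells (SD, n = 10) and to no detection in adult atrial cells. The mean Fn1 level ran from 9.98 ± 0.73 in D5 cells (SD, n = 6) and 8.82 ± 1.95 in E7.5 cells (SD, n = 6) down to 0.90 ± 1.46 in D23 cells (SD, n = 10), and Fn1 was listed at 0 in all neonatal ventricular, adult ventricular and adult atrial cells. The 5 sets with the lowest mean Vim were the CM, D29, D23, adult ventricular and adult atrial cells, all of them cells with a high contractile signal, and these were also among the sets with the lowest Fn1. In both orders the cells of every set overlapped in level with those of the next, so the order between neighbours does not exceed the spread between cells.

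**Figure D1:**
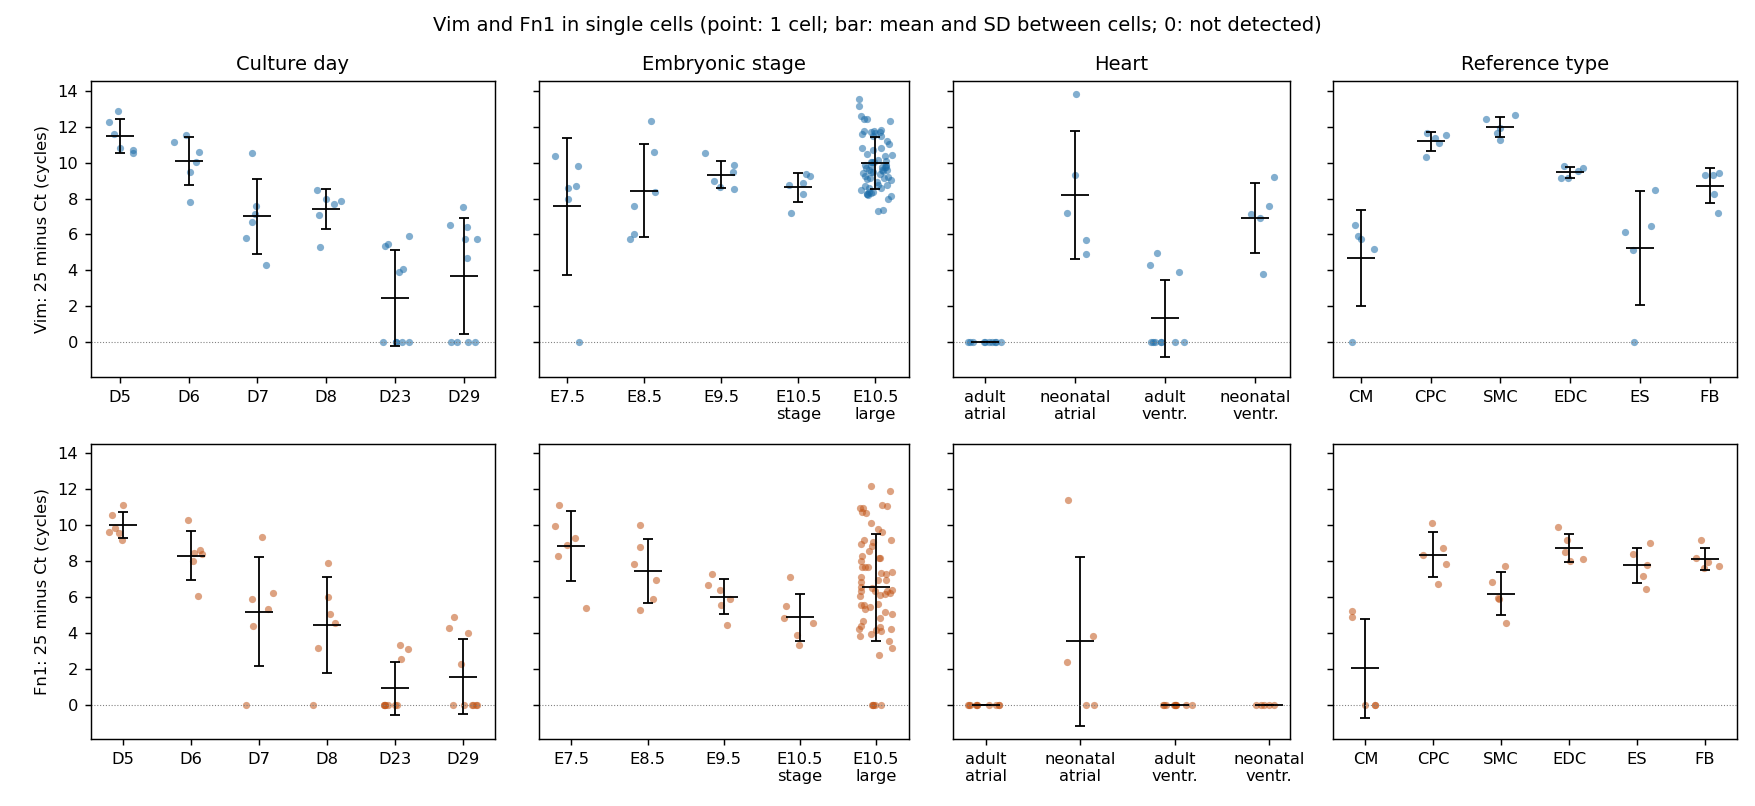
Level of Vim (top) and Fn1 (bottom) in single cells, in cycles as 25 minus Ct, by culture day, embryonic stage, heart chamber and age, and reference type. Each point is 1 cell, bars give the mean and SD between cells, and 0 is not detected. All 10 adult atrial cells lie at 0 for both genes, and the 5 SMC cells lie between 11.27 and 12.67 for Vim.

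In culture, both genes were lower on the later days. Vim was detected in 6 of 6 cells on each of D5 to D8, at 10.56, 11.21 and 12.89 cycles on D5 (lowest, median and highest cell), 7.80, 10.33 and 11.52 on D6, 4.32, 6.92 and 10.55 on D7, and 5.28, 7.79 and 8.45 on D8. D8 cells averaged 7.40 ± 1.13 and D5 cells 11.47 ± 0.95 (SD, n = 6 each), a difference of -4.07 with no overlap between the cells. Fn1 stood at 9.20, 9.73 and 11.13 on D5, at 6.04, 8.43 and 10.29 on D6, at 0, 5.59 and 9.32 on D7, and at 0, 4.81 and 7.87 on D8 (lowest, median and highest cell). D8 cells averaged 4.43 ± 2.68 and D5 cells 9.98 ± 0.73, a difference of -5.55, again without overlap. Of all 42 assays, 26.2% were at least 1 cycle lower on D8 than on D5, and both genes were among them.

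Most of that difference lay between D6 and D7, where Vim differed by -3.08 and Fn1 by -3.12. D6 minus D5 was -1.38 for Vim (-0.92 without D6 cell 6) and -1.69 for Fn1, and D8 minus D7 was 0.39 and -0.75. On these 2 days the cell that stood apart in its contractile assays also stood apart in Vim and Fn1. On D6, cell 6 was the single cell with a high mean over the contractile assays (10.52), and it had the lowest Vim (7.80) and Fn1 (6.04) of that day, against 9.46 to 11.52 and 7.99 to 10.29 in the other 5 cells. On D7, cell 1 was the single cell with a low contractile mean (0.95), and it had the highest Vim (10.55) and Fn1 (9.32), against 4.32 to 7.58 and 0 to 6.2 in the other 5.

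Actb, the cytoskeletal actin assay and the one housekeeping gene on the panel, was lower on D8 as well, at 7.09 ± 1.59 in D8 cells and 12.66 ± 0.46 in D5 cells (SD, n = 6 each). Relative to each cell's own Actb the D8 minus D5 difference was 1.50 for Vim and 0.02 for Fn1, so neither gene was lower on that scale. Actb also stood apart in the single cells of D6 and D7 described above. It was at 8.66 in D6 cell 6, against 11.36 to 13.07 in the other 5 cells. In D7 cell 1 it was at 11.89, against 6.63 to 8.15, so the contrast in these cells was not particular to Vim and Fn1. Whether the Actb difference reflects input per cell or its own regulation was not tested. The 10 contractile assays were at least 1 cycle higher on D8 in 10 of 10 cases, against 21 of all 42 assays (median 7.76, against 1.15 over all 42). Of the 6 other mesenchymal or smooth muscle genes, 3 were lower and 1 higher (median -1.21). Sm22A, an actin-binding protein of smooth muscle, differed by -6.00, Pdgfra, a receptor of mesodermal and mesenchymal cells, by -4.05, Cnn2 (calponin 2) by -1.55, and Cnn1 (calponin 1) by 2.45.

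On D23 and D29 many cells gave no signal for either gene. Vim was detected in 5 of 10 D23 cells (50%, interval 18.7% to 81.3%) and 6 of 10 D29 cells (60%, 26.2% to 87.8%). Fn1 was detected in 3 of 10 D23 cells (30%, 6.67% to 65.2%) and 4 of 10 D29 cells (40%, 12.2% to 73.8%). D29 cells ranged over 0, 5.21 and 7.5 cycles for Vim and over 0, 0 and 4.88 for Fn1, and D23 cells over 0, 1.95 and 5.89 and over 0, 0 and 3.32 (lowest, median and highest cell). The ranges of the 2 days overlapped on both genes, though some D29 cells lay above the highest D23 cell on each.

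The difference between D29 and D8, which spans 2 tables, was -3.74 for Vim (3.66 ± 3.23, n = 10, and 7.40 ± 1.13, n = 6) and -2.90 for Fn1 (1.54 ± 2.09 and 4.43 ± 2.68), with overlapping cells. At this step 33.3% of the 42 assays were at least 1 cycle lower. Actb differed less, by -1.48, and relative to it the differences were -2.26 for Vim and -1.42 for Fn1. Among D29 cells that detected Vim the mean was 6.10, and the difference from D8 over detecting cells was -1.30, so much of the Vim difference lay in the 4 cells without signal. The contractile assays moved little here (1 higher, 1 lower of 10, median 0.34), while 4 of the 6 other mesenchymal or smooth muscle genes were lower and none higher (median -1.82, against -0.29 over all assays), among them Cnn2 at -5.70 and Cnn1 at -5.03. Between D29 and D23, Vim differed by 1.19 and Fn1 by 0.64, where 38.1% of assays were at least 1 cycle higher.

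Along the embryonic stages the 2 genes parted. Fn1 was lower at each later stage, with 5.37, 9.09 and 11.10 cycles at E7.5, 5.28, 7.40 and 10.003 at E8.5, 4.42, 6.12 and 7.26 at E9.5, and 3.31, 4.69 and 7.10 at E10.5 (lowest, median and highest of 6 cells). E10.5 cells averaged 4.86 ± 1.33 and E7.5 cells 8.82 ± 1.95 (SD, n = 6 each), a difference of -3.96, with stepwise differences of -1.37, -1.43 and -1.16, each of which came under 1 cycle in size when certain single cells were left out. The ranges of E10.5 and E7.5 overlapped through the 1 E7.5 cell at 5.37. The same comparison had 21.4% of assays at least 1 cycle lower.

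Vim stayed high over the same stages. It stood at 0, 8.64 and 10.39 at E7.5, at 5.73, 7.98 and 12.35 at E8.5, at 8.54, 9.23 and 10.52 at E9.5, and at 7.20, 8.83 and 9.35 at E10.5 (lowest, median and highest of 6 cells). E10.5 cells averaged 8.62 ± 0.79 and E7.5 cells 7.58 ± 3.82, a difference of 1.04 that rested on E7.5 cell 1, which gave no Vim signal. Without that cell the difference was -0.47. Stepwise the differences were 0.86, 0.90 and -0.71, all under 1 cycle with every cell included, and the cells of neighbouring stages overlapped. E7.5 cells 4, 5 and 6 carried the endothelial marker Cdh5, at 9.69, 8.89 and 9.27, and had the highest Vim of their stage. E8.5 cells 1 and 2 carried it too, while all E9.5 and E10.5 cells of the stage table were at 0. Stage and a difference in cell type therefore cannot be told apart here.

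The contractile assays were at least 1 cycle higher at E10.5 than at E7.5 in 10 of 10 cases (median 10.06, against 2.64 over all assays), and all 6 E10.5 cells of the stage table carried Vim beside a contractile mean of at least 7.84. Of the other mesenchymal or smooth muscle genes 3 of 6 were higher and none lower (median 1.52), against 24 higher and 9 lower of all 42 assays. The 3 were Cnn1, higher by 7.52, Vcam1, an adhesion molecule, by 4.04, and Sm22A by 3.04. As a list these genes were not higher more often than the whole panel. Actb was lower, at 6.70 ± 1.06 in E10.5 cells and 11.50 ± 0.72 in E7.5 cells (SD, n = 6 each). Relative to Actb, Vim was higher at E10.5 by 5.85 and Fn1 by 0.84, which turns the direction for Fn1.

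The 66 further E10.5 cells averaged 9.98 ± 1.44 for Vim and 6.53 ± 2.97 for Fn1 (SD, n = 66), more than the 6 of the stage table on both genes. Vim was detected in all 66 (interval 94.6% to 100%) at 7.31, 9.77 and 13.52, and Fn1 in 61 (92.4%, 83.2% to 97.5%) at 0, 6.45 and 12.16 (lowest, median and highest cell). Set in place of the 6, they gave an E10.5 minus E7.5 difference of -2.29 for Fn1, and an E10.5 minus E9.5 difference of 0.51 in place of -1.16. The large table includes 16 cells with a low contractile mean, described further on, and the 6 cells of the stage table include none.

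In the heart, Vim had the most negative adult minus neonatal difference of all assays in both chambers. In the atrium it was listed at 0 in 10 of 10 adult cells (0%, interval 0% to 30.8%), while the neonatal cells had 9.30, 4.90, 7.18, 5.69 and 13.80 cycles. The difference was -8.18, the lowest of all 42 assays, with no overlap between the cells. In the ventricle it was detected in 3 of 10 adult cells (30%, 6.67% to 65.2%), at 4.97, 4.29 and 3.90, and in all 5 neonatal cells, at 7.56, 7.11, 9.21, 6.89 and 3.80. That difference was -5.60 (1.32 ± 2.14, n = 10, and 6.92 ± 1.96, n = 5), again the lowest of 42, and the ranges overlapped because neonatal cell 5 lay below the adult cells that detected Vim. Of these 3 adult cells, the one at 4.97 also carried the endothelial marker Cdh5 at 6.2 and Pdgfra at 5.30, which were at 0 in the others. The endothelial markers Pecam1 and Vwf were at 0 in that cell. Adult ventricular cell 2 carried Cdh5 at 4.64 without Vim. Neonatal ventricular cell 1 carried Cdh5 at 5.77, Pecam1 at 3.79 and Pdgfra at 5.41 beside Vim at 7.56. In the other neonatal ventricular cells Cdh5 was at 0. Whether Cdh5 and Vim go together in these cells was not tested.

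Fn1 was listed at 0 in all 10 adult atrial cells and stood at 3.80, 0, 2.36, 0 and 11.43 in the 5 neonatal atrial cells, a difference of -3.52. In the ventricle it was listed at 0 in all 10 adult cells (interval 0% to 30.8%) and all 5 neonatal cells (0% to 52.2%). No fold is given against a set at 0, since its true level may lie anywhere under the detection limit. The share of assays at least 1 cycle lower in adult cells was 35.7% in the atrium and 16.7% in the ventricle.

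Actb averaged 4.96 ± 1.23 in adult and 6.83 ± 2.81 in neonatal atrial cells, and 4.6 ± 2.34 in adult and 4.91 ± 0.76 in neonatal ventricular cells. Relative to Actb, the adult minus neonatal difference of Vim was -6.30 in the atrium and -5.65 in the ventricle, and that of Fn1 was -1.64 in the atrium. The contractile assays went another way: in the ventricle 8 of 10 were higher in adult cells and none lower (median 1.67, against 0.00 over all assays), and in the atrium 3 were higher and 1 lower (median 0.33, against -0.56). Vcam1 was listed at 0 in adult cells of both chambers and averaged 4.85 ± 2.33 in neonatal atrial and 3.49 ± 0.94 in neonatal ventricular cells (SD, n = 5 each). Pdgfra differed between adult and neonatal cells by -2.68 in the atrium and -2.58 in the ventricle. Of the 6 other mesenchymal or smooth muscle genes, 4 were lower and none higher in adult atrial cells (median -2.90, against -0.56 over all assays). In the ventricle 2 were lower and 1 higher (median 0.14, against 0.00), the higher one being Cnn2 at 2.05. In the ventricle the list as a whole was thus not lower.

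Neonatal atrial cell 5 stood apart from the other cells of its set. It carried the highest Vim (13.80) and Fn1 (11.43), with Pdgfra at 9.19, Vcam1 at 8.99 and Sm22A at 10.47, together with Sln, the atrial regulator of the calcium pump, at 13.31 and a contractile mean of 9.45. Its Actb (10.44) was also the highest of its set. The endothelial markers Cdh5, Pecam1 and Vwf were at 0 in it. Without this cell the adult minus neonatal atrial difference was -6.77 for Vim and -1.54 for Fn1. If the rows of both heart tables were read 1 lower, as the positive control there would have it, the atrial difference would be -3.52 for Vim and 0.36 for Fn1, and the ventricular Vim difference 0.00.

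Between chambers of the same age the picture was less clear. Neonatal atrial minus neonatal ventricular cells differed by 1.26 for Vim, which was -0.15 without atrial cell 5 and 0.48 without ventricular cell 5. They differed by 3.52 for Fn1, which was 1.54 without atrial cell 5 and 1.59 relative to Actb, where 35.7% of assays were at least 1 cycle higher. Adult atrial minus adult ventricular cells differed by -1.32 for Vim, through the 3 ventricular cells that detected it, and Fn1 was at 0 in both, where 23.8% of assays were at least 1 cycle lower.

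Neonatal ventricular cells were also set against the 56 E10.5 cells of the large table that detect Myl2, the ventricular regulatory light chain, whose contractile means ran from 1.05 to 12.42. Among the 56, cells 3, 4, 8, 9, 10, 13 and 30 had contractile means of 3.36 or below. Their Vim lay at 11.47 to 13.17 and their Fn1 at 8.84 to 12.16, and all but cell 13 carried Cdh5. The E10.5 side is thus not made up of contractile cells alone. Vim averaged 6.92 ± 1.96 in the neonatal cells (SD, n = 5) and 9.71 ± 1.29 in the E10.5 cells (SD, n = 56), a difference of -2.79 across tables with overlapping cells. Fn1 was at 0 in the neonatal cells and at 5.98 ± 2.76 in the E10.5 cells, of which 51 detected it (91.1%, interval 80.4% to 97.0%). At this step 35.7% of assays were at least 1 cycle lower. Actb differed by -3.09, and relative to it Vim differed by 0.29 and Fn1 by -2.90.

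Among the reference cells, Vim did not single out the FB cells. It was highest in SMC cells, at 11.67, 11.95, 12.41, 11.27 and 12.67 cycles, and in CPC cells, at 11.52, 11.08, 10.33, 11.39 and 11.67. EDC cells followed at 9.80, 9.54, 9.15, 9.12 and 9.69, and FB cells at 9.32, 9.45, 8.23, 9.34 and 7.20. All SMC and CPC cells lay above all EDC and FB cells. ES cells had 6.15, 0, 8.47, 5.15 and 6.44, and CM cells 5.74, 6.55, 5.94, 5.20 and 0, and these overlapped each other. In the order of means, only the step between CPC and EDC separated neighbouring types without overlap.

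Fn1 was ordered differently. EDC cells had 8.48, 8.01, 9.16, 9.87 and 8.09 cycles, CPC cells 8.75, 7.82, 6.71, 8.35 and 10.15, FB cells 7.74, 8.15, 7.61, 9.14 and 7.95, and ES cells 7.17, 7.80, 8.36, 9.0 and 6.46. These 4 types overlapped throughout. SMC cells were lower, at 5.87, 7.74, 5.93, 4.56 and 6.82, and CM cells lowest, at 0, 4.88, 0, 5.22 and 0. No neighbouring pair in this order was separated, but every CM cell lay below every EDC, CPC, FB and ES cell.

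The CM cells thus had less of both genes than the progenitor and fibroblast types. CM minus CPC was -6.51 for Vim (4.68 ± 2.66 and 11.20 ± 0.53) and -6.33 for Fn1 (2.02 ± 2.77 and 8.36 ± 1.26), where 40.5% of assays were at least 1 cycle lower. CM minus FB was -4.02 for Vim and -6.09 for Fn1, the lowest difference of all assays for Fn1, where 16.7% were at least 1 cycle lower. Actb averaged 6.30 ± 0.56 in CM, 11.53 ± 0.69 in CPC and 9.86 ± 0.53 in FB cells (SD, n = 5 each), and relative to it the CM minus CPC differences were -1.29 and -1.11 and the CM minus FB differences -0.46 and -2.53. Of the 6 other mesenchymal or smooth muscle genes 4 were lower in CM than in CPC cells and none higher (median -5.88, against 0.00 over all assays), led by Sm22A at -8.78 and Pdgfra at -7.31.

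Against FB cells the other types differed gene by gene. CPC minus FB was 2.49 for Vim and 0.24 for Fn1 (40.5% of assays at least 1 cycle higher), and SMC minus FB was 3.29 for Vim and -1.93 for Fn1 (31% higher). SMC cells also held Myh11, smooth muscle myosin, 10.88 above FB cells. EDC minus FB was 0.75 for Vim and 0.60 for Fn1, both under 1 cycle (14.3% of assays higher), and ES minus FB was -3.46 for Vim (-2.15 without ES cell 2, which gave no Vim signal) and -0.36 for Fn1 (19% of assays lower). The FB cells themselves were at 0 for Pdgfra and Cnn1, so of the 3 fibroblast markers on the panel these cells showed only Vim and Fn1.

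The mean over the 10 contractile assays (Tnnt2, Tnni3, Myh6, Myh7, Myl2 and Actn2, genes of the cardiac sarcomere) fell into 2 ranges over the 192 distinct cells: 131 cells lay at 5.75 or above and 61 at 3.36 or below. Cells were therefore split at 5, a value chosen after the gap was seen. In the D5-D8 table the 12 high-contractile cells had Vim at 4.32, 7.36 and 8.45, and the 12 low-contractile cells at 9.46, 10.75 and 12.89 (lowest, median and highest), with no overlap and a difference of -4.03. Fn1 stood at 0, 5.18 and 7.87 in the high-contractile and 7.99, 9.43 and 11.13 in the low-contractile cells, with a difference of -4.88 and no overlap. Of the 32 assays outside the contractile list, 31.2% were at least 1 cycle lower in the high-contractile cells. The low-contractile cells were 6 of D5, 5 of D6 and 1 of D7, and the high-contractile cells 1 of D6, 5 of D7 and 6 of D8. The split thus largely follows day, and the pooled differences cannot tell it apart from day.

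The E10.5 cells of the large table showed the same split within 1 stage. Vim averaged 9.35 ± 0.95 in the 50 high-contractile and 11.92 ± 0.80 in the 16 low-contractile cells, a difference of -2.57, and the ranges of 7.31 to 11.69 and 10.44 to 13.52 overlapped. Fn1 averaged 5.38 ± 2.38 (45 of 50 cells detecting) and 10.12 ± 1.26 (16 of 16), a difference of -4.73. Of the 32 assays only 1 had a lower difference than Fn1, and 31.2% were at least 1 cycle lower in the high-contractile cells. In the E7.5-E10.5 table Fn1 differed by -3.26 between the 16 high-contractile and 8 low-contractile cells (5.70 ± 1.29 and 8.96 ± 1.70), while Vim differed by -0.08 (8.47 ± 1.29 and 8.55 ± 3.72), and 28.1% of assays were at least 1 cycle lower. That Vim value holds E7.5 cell 1 at 0 on the low-contractile side. Over the cells that detected Vim, which leaves out that cell alone, the difference was -1.31. Within E8.5, the 4 high-contractile cells had Vim between 5.73 and 8.37 and the 2 low-contractile cells 10.59 and 12.35, with no overlap. Both low-contractile cells carried the endothelial marker Cdh5, at 11.43 and 12.12, which was at 0 in the 4 high-contractile cells. The contractile split and a difference in cell type cannot be told apart there. Among the low-contractile E7.5 cells, Cdh5 was carried by cells 4, 5 and 6 and was at 0 in cells 1, 2 and 3. The same limit therefore bears on the pooled differences of the E7.5-E10.5 table.

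Actb moved with this split in all 3 tables. High-contractile minus low-contractile cells differed in it by -5.01 among D5-D8 cells, -3.12 across the embryonic stage table and -3.07 in the large E10.5 table. Relative to Actb the differences were 0.98, 3.04 and 0.50 for Vim and 0.13, -0.14 and -1.67 for Fn1, in the same order of tables. Relative to Actb, therefore, Vim was not lower in high-contractile cells in any of these tables, and Fn1 was at least 1 cycle lower only in the large E10.5 table.

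**Figure D2:**
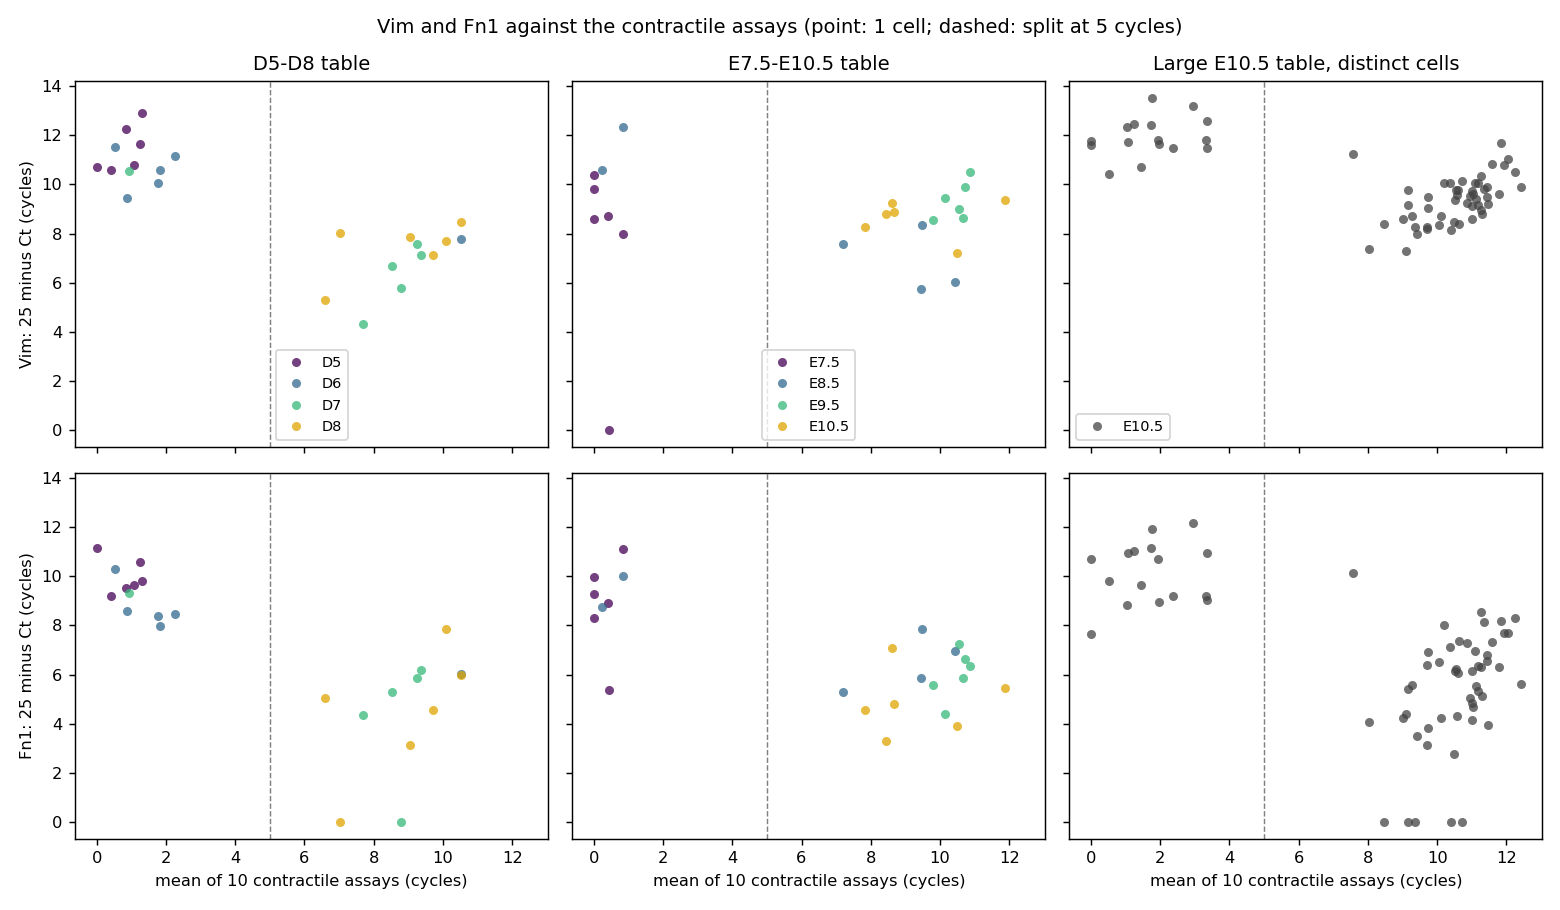
Level of Vim (top) and Fn1 (bottom) in each cell against the mean of its 10 contractile assays, all in cycles, for 3 tables. Points are cells coloured by day or stage, and the dashed line is the split at 5. The cells form 2 clouds in each panel, and the 12 high-contractile D5-D8 cells lie below the 12 low-contractile ones for both genes.

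A split by detection of Tnnt2, cardiac troponin T, left few cells on the undetected side. In the D5-D8 and embryonic stage tables these were early cells, of D5 and of E7.5 or E8.5. Tnnt2-detecting minus Tnnt2-undetected cells differed by -3.06 for Vim and -3.82 for Fn1 in the D5-D8 table (22 and 2 cells), where 25% of the 40 assays of other genes were at least 1 cycle lower. For the embryonic stage table the differences were 0.69 for Vim and -2.86 for Fn1 (17 and 7 cells, 22.5% of assays lower). Without E7.5 cell 1, the one cell there with no Vim signal, the Vim difference was -0.65. For the large E10.5 table the differences were -1.74 and -3.78 (61 and 5 cells, 22.5% lower). All 5 Tnnt2-undetected cells there carried the endothelial markers Cdh5, at 10.11 to 11.20, and Pecam1, at 5.99 to 8.31. Some Tnnt2-detecting cells carried Cdh5 too. Detection of Tnnt2 and a difference in cell type cannot be told apart in these cells.

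The low-contractile E10.5 cells were not 1 type. The endothelial marker Cdh5 was detected in 2 of the 50 high-contractile and 10 of the 16 low-contractile cells, Pecam1 in 1 and 11, Vwf in 6 and 7, and the mesenchymal marker Pdgfra in 7 and 9. Of the 6 other mesenchymal or smooth muscle genes, only Pdgfra was at least 1 cycle lower in the high-contractile cells. In these cells 3 were higher, Cnn1 by 7.75, Sm22A by 3.64 and Vcam1 by 2.72. The median difference was 1.49, against 0.02 over the 32 assays outside the contractile list. As a list these genes were thus not lower along with Vim and Fn1. Vim averaged 12.04 ± 0.88 in the 10 low-contractile cells with Cdh5 and 11.74 ± 0.70 in the 6 without, and Fn1 10.12 ± 1.47 and 10.12 ± 0.93. For both genes the means with and without Cdh5 lay closer together than 1 SD.

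Within the 50 high-contractile E10.5 cells, cells with more contractile signal had more, not less, of both genes. Pearson's r with the contractile mean was 0.50 for Vim (Spearman's rho 0.57) and 0.36 for Fn1 (rho 0.46), over n = 50 cells, and 0.66 and 0.55 without the 2 cells farthest from the median. The cells share their stage and table, and r with Actb was larger, 0.67 for Vim and 0.71 for Fn1. With each cell centred on Actb, a value then shared by both measures, r with the contractile mean was 0.69 for Vim and -0.04 for Fn1. With each cell centred on the median of its detected assays, r was 0.06 for Vim and -0.17 for Fn1. Fn1 was undetected in 5 of these cells, whose Actb averaged 5.24 ± 1.23, against 7.89 ± 1.37 in the 45 cells that detected it. Their Vim lay between 8.13 and 10.14, inside the range of the other 45.

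Over the 192 distinct cells 140 detected both genes, 23 Vim alone, 3 Fn1 alone and 26 neither. All 26 cells with neither were high-contractile, as were all 23 with Vim alone. In the 131 high-contractile cells 81 had both genes and 1 had Fn1 alone, and in the 61 low-contractile cells 59 had both and 2 had Fn1 alone. The 3 cells with Fn1 alone were E7.5 cell 1, ES cell 2 and D23 cell 8. The detection limit of each assay bears on these counts, so the excess of Vim over Fn1 is a count of signals and not of transcripts.

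**Figure D3:**
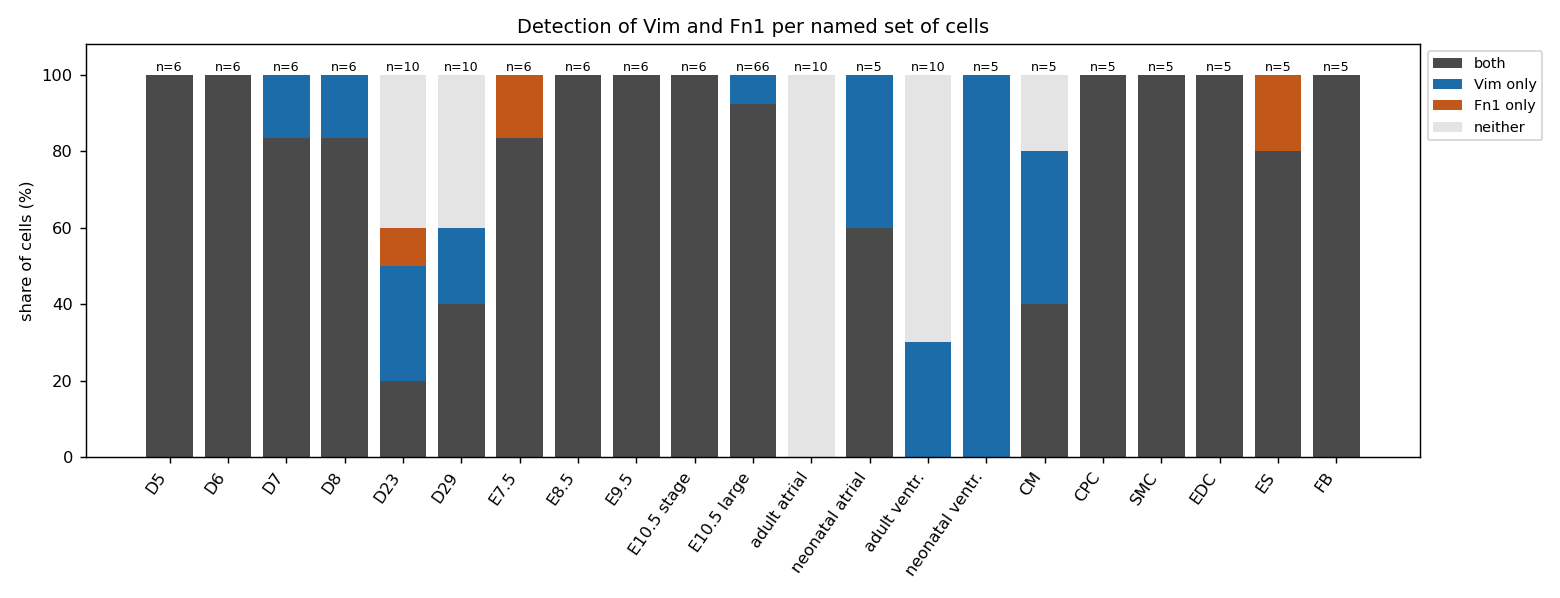
Share of cells (%) in each named set that detected both genes, Vim alone, Fn1 alone or neither, with the number of cells above each bar. All 5 neonatal ventricular cells had Vim alone, all 10 adult atrial cells had neither, and 7 of 10 adult ventricular cells had neither.

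Over the 21 set means the assays most like Vim were Sm22A (Pearson's r 0.79), Fn1 (0.79) and Actb (0.74), and those most unlike it Tnni3-1 (-0.63), Myh6-1 (-0.62) and Tnni3-2 (-0.60), where Tnni3 is cardiac troponin I and Myh6 alpha myosin heavy chain. For Fn1 they were Actb (0.93), Vim (0.79) and Cnn2 (0.68) at the top and Tnni3-1 (-0.87), Myh6-1 (-0.86) and Tnni3-2 (-0.86) at the bottom. Over the 192 cells Vim was most like Fn1 (0.76), Actb (0.67) and Sm22A (0.61), and Fn1 most like Actb (0.83), Vim (0.76) and Cnn2 (0.53). These are descriptions: some sets share a table, and every assay of a cell shares that cell's input. The set means here are over distinct cells, so the CM mean leaves out the 2 repeated CM cells.

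**Figure D4:**
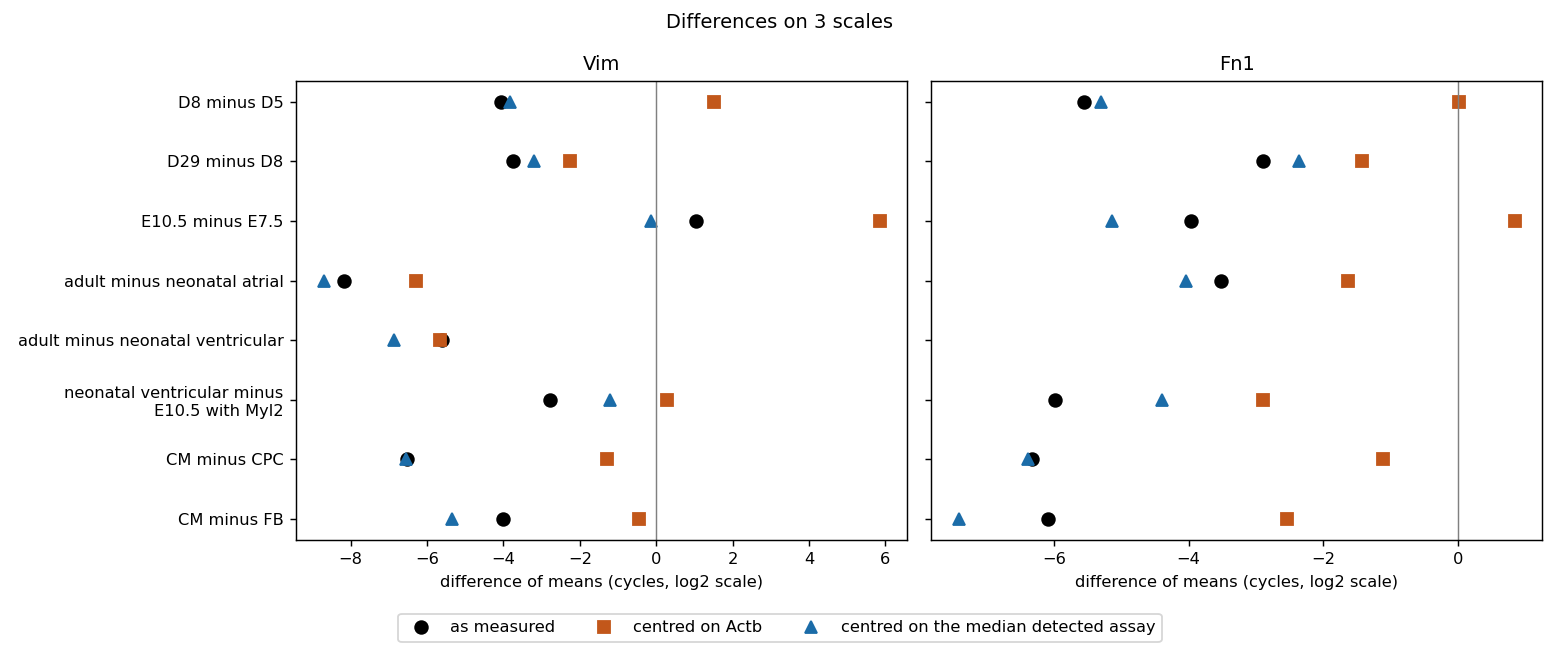
Differences of means for Vim (left) and Fn1 (right) in cycles, as measured (circles), with each cell centred on Actb (squares) and on the median of its detected assays (triangles). The later, adult or CM set is on top of each difference, and Fn1 has no adult minus neonatal ventricular value because it was at 0 in both. On the Actb scale D8 minus D5 is 1.50 for Vim and 0.02 for Fn1, while adult minus neonatal atrial is -6.30 and -1.64.

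Whichever scale was used, Vim was lower in D29 than in D8 cells, in adult than in neonatal cells of either chamber, and in CM than in CPC and FB cells, although the CM minus FB difference was under 1 cycle on the Actb scale. The differences between D8 and D5 and between E10.5 and E7.5 depended on it. In the D29 minus D8, adult minus neonatal atrial, CM minus CPC and CM minus FB comparisons Fn1 also kept its direction on all 3 scales. On the Actb scale an undetected gene enters at 0, so in such a cell the value is set by Actb alone. That was so for both genes in all 10 adult atrial cells, and for Fn1 in most D29 and CM cells. For these sets the Actb scale adds no separate evidence on the level of the gene.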

How the data were processed

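Single cells were sorted, lysed, reverse transcribed, pre-amplified with TaqMan assays and, per the labels' protocols, read on a BioMark machine with Fluidigm chips. The deposited values are quantification cycles (unit: other) for 42 assays in 7 tables. For the fluorescence threshold, any quality filter and any housekeeping correction the rule is not given in the sources used here; Actb varies freely, so the values are not relative to it.

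Level was computed as 25 minus Ct, with undetected assays at 0. For each named set of cells the mean, the SD between cells and the detection share with its exact interval at 95% were computed, and sets were compared by differences of means on the log2 (cycle) scale. Differences against an undetected set are limited by the detection limit. The number of cells used, 5 to 66 per set, limits precision, and 2 of the 5 CM cells are also D29 cells. Control columns (12) were not used as cells. Repeated cells were counted once in each comparison across tables. The contractile list holds 10 assays and the list of other mesenchymal or smooth muscle genes holds Pdgfra, Vcam1, Sm22A, Cnn1, Cnn2 and Myh11. Named genes are Vim, Fn1, the 3 assays of other genes with the highest and the 3 with the lowest Pearson correlation to each, and up to 4 members of each list per comparison. Other single assays (Cdh5, Pecam1, Vwf, Sln) were chosen as cell type markers or after their values were seen. The members and lists were chosen with earlier results of these data known. The split at a contractile mean of 5 was chosen after the values were seen.

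Alternatives were centring each cell on Actb (cells with Actb detected, undetected assays entering at 0) or on the median of its detected assays, a limit at Ct 23, detecting cells only (at least 3 per set), medians, removal of cells without Actb signal or with a number of detected assays that fell short of their table's median by over 3 median absolute deviations, leaving out each cell in turn, and other choices of E10.5 and CM cells. Python 3.11.15 with numpy 2.4.6, pandas 2.3.3, scipy 1.17.1 and matplotlib 3.10.9 was used, and the step that computes differences was tested with simulated data.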

Additional observations from a re-analysis of the deposited data

Results flagged for a closer look

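In the sets of 4 to 10 cells, 36 sets of values of Vim and Fn1 were examined for a cell far from the others, and 2 were found. The limits used would mark about 1 in 20 sets by chance if the values were normally distributed. Sets that hold undetected values at 0 are not, so the chance rate here is not known. Both marked values are such zeros. Vim was 0 in E7.5 cell 1, the lowest of 6 cells, with a gap to the next cell of 0.768 of the whole range, while the other 5 E7.5 cells lay between 7.98 and 10.39. The same cell detected Fn1 at 5.37, the lowest of its stage, and Actb at 12.29, the highest of its stage. Vim was also 0 in CM cell 5, the lowest of 5 cells, with a gap of 0.793 of the range, while the other 4 CM cells lay between 5.20 and 6.55. In that cell Fn1 was at 0 too.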

How the results depend on the processing

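A detection limit at Ct 23 (54 values) and medians over cells (52 values) turned or moved none beyond the spread between cells. Centring on Actb had the most effect. On that scale D8 minus D5 was 1.50 for Vim and 0.020 for Fn1, D7 minus D6 was 0.30 and 0.26, and E10.5 minus E7.5 was 5.85 and 0.84. For Fn1, E9.5 minus E8.5 was 0.98 and E10.5 minus E9.5 was 1.01. CM minus CPC was -1.29 for Vim and -1.11 for Fn1, CM minus FB -0.46 and -2.53, CPC minus FB 0.83 and -1.43, and EDC minus FB 2.13 and 1.98. Neonatal ventricular minus Myl2-detecting E10.5 cells was 0.29 and -2.90, and neonatal atrial minus neonatal ventricular cells was -0.67 for Vim. High-contractile minus low-contractile cells were at 0.98 and 0.13 in the D5-D8 table, 3.04 and -0.14 over the embryonic stages and 0.50 and -1.67 in the large E10.5 table. Tnnt2-detecting minus Tnnt2-undetected cells were at -0.52 and -1.28 in the D5-D8 table, at -0.083 for Fn1 over the embryonic stages and at 0.20 for Vim in the large E10.5 table. The cause of these shifts was not tested, and Actb itself differed between the sets.

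Centred on the median detected assay, E10.5 minus E7.5 was -0.14 for Vim, CPC minus FB 1.23 for Vim and -1.03 for Fn1, SMC minus FB 1.46 and -3.76, EDC minus FB -0.37 and -0.52, and large E10.5 high-contractile minus low-contractile -4.20 for Vim. Over detecting cells alone Vim was at -1.30 for D29 minus D8, -0.47 for E10.5 minus E7.5 and -2.53 for adult minus neonatal ventricular cells. E10.5 minus E7.5 for Vim was -0.57 after the filter on cells, and leaving out 1 cell at a time gave -0.47 (without E7.5 cell 1) to 1.61. Neonatal atrial minus neonatal ventricular Vim ran from -0.15 without atrial cell 5 to 2.08. With the large E10.5 table in place of the 6 cells, Fn1 was at -2.29 for E10.5 minus E7.5 and 0.51 for E10.5 minus E9.5 (0.37 with all 72 cells).

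Read 1 row lower, the heart tables gave an adult minus neonatal difference of -3.52 for Vim and 0.36 for Fn1 in the atrium and 0.00 for Vim in the ventricle, a neonatal atrial minus ventricular difference of -1.15 for Fn1, and a neonatal ventricular minus E10.5 difference of -9.71 for Vim. This choice, the split at 5 and the use of the distinct cells of the large E10.5 table were made after seeing the data. The correlation of Vim with the contractile mean over the 50 high-contractile E10.5 cells was 0.061 when centred on the median assay and 0.23 with the number of contractile assays detected in place of their mean. That of Fn1 was -0.043 on Actb and -0.17 on the median assay. Over all Tnnt2-detecting cells, which pool both contractile ranges, the correlations were -0.62 for Vim and -0.53 for Fn1. With 5 to 10 cells in most sets, and 1 sample per set, detection shares are known only to within the wide intervals given, and a level under the detection limit cannot be told from none.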
